A study of Mus musculus with 48 samples.

Results

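The salivary secretory genes Smr2, Smr3a, Bpifa2, Amy1, Cst10 and Dcpp1 were followed through the tear-producing lacrimal gland and the lipid-producing meibomian gland of mice with and without aromatase. The 6 genes were taken by symbol from the probe annotation, which names all 6 on the Affymetrix array, among 12394 genes, and 3 of them (Smr2, Bpifa2 and Amy1) on the CodeLink array, among 10956. The animals were homozygous aromatase knockouts and wild type controls of matched age, males and females, which gives 8 groups of gland, genotype and sex. Every group held 3 samples, each a pool of glands from 5 to 8 mice, and labelled RNA of every pool went onto an array of each type, 48 arrays in all. For meibomian glands the CodeLink labels give another RNA extraction than the Affymetrix labels of the same pools. No strain, exact age or knockout allele is given in the sources used here, and no feature names the aromatase gene Cyp19a1, so its loss could not be checked on these arrays.

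Saliva and tears come from related exocrine glands whose acinar cells release proteins from secretory granules. Bpifa2, parotid secretory protein, binds bacterial lipopolysaccharide, Amy1 is the starch-cleaving amylase of saliva, and Dcpp1, demilune cell and parotid protein, is released by sublingual demilune cells and the parotid gland. Smr2 and Smr3a belong to a family of small secreted proteins found as androgen-regulated products of the mouse submaxillary gland, and Cst10 is a cystatin, a family that inhibits cysteine proteases. Aromatase turns androgens into estrogens, so its loss removes estrogen synthesis in both sexes.

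The labelled glands were checked first, on summed Affymetrix signals of marker lists. The 13 lacrimal acinar genes named on the array summed to between 25498.3 and 34617.1 in the 12 lacrimal pools and to at most 9275.0 in the 12 meibomian pools. Car6, Pip and Lpo had the highest lacrimal medians of this list (6450.2, 7040.45 and 4882.9). They are also listed as salivary genes, so the sum does not tell lacrimal from salivary tissue. Before centring, Rab27b, Slc12a2 and Vamp8 had higher medians in meibomian pools, and the other genes of the list in lacrimal pools. The 6 meibocyte genes summed to at least 23675.4 in meibomian and at most 2461.1 in lacrimal pools. In lacrimal pools the sums were 25.2 to 83.7 for 10 pancreatic acinar genes and 14.9 to 77.6 for 9 skeletal muscle genes. They were 124.0 to 280.7 for 8 keratinocyte genes and 90.6 to 567.2 for 7 adipocyte genes. The sums of 9 lymphocyte and plasma cell genes were 5548.0 to 12802.6. Most of this signal was from Igha (median 6916.6) and Jchain (2584.35), and the other genes of that list stayed at 29.7 or less. Xist, the transcript of the inactive X chromosome, was at 225.9 or more in the 12 female pools and at 18.8 or less in the 12 male pools. The median Affymetrix signal was 12.2 to 20.8 on the lacrimal arrays, against 35.5 to 84.05 on the meibomian ones, so values were centred on the array median before any comparison, on a log2 scale after adding a pseudocount of 4.4.

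Some lacrimal pools stood apart from the rest for these genes, and they are named before the results. Pool 3 of the knockout females and pools 1 and 3 of the knockout males were the 3 lowest lacrimal pools for 8 of 8 features of the members other than Smr2, 5 probe sets of single genes, the probe set shared by Dcpp1, Dcpp2 and Dcpp3, and 2 CodeLink spots. Pool 1 of the knockout females and pool 1 of the wild type females were the 2 highest for 8 of 8. Pool 2 of the knockout males was among the 4 highest for 8 of 8, and pool 2 of the knockout females for 7 of 8. Both genotypes therefore held pools with high signals, and the 3 lowest pools were all knockouts.

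Bpifa2 had the widest range between lacrimal pools on the log2 scale. Its Affymetrix signal was 6981.1, 2452.7 and 1702.2 in wild type females and 1455.1, 3209.1 and 1607.9 in wild type males. In knockout females it was 6893.8, 5081.2 and 13.4, and in knockout males 4.7, 4567.1 and 0.4. The knockout pools thus split, with 3 of them above 5 of the 6 wild type pools and the other 3 below all 6. The CodeLink spot for Bpifa2 gave 2802, 1607 and 2.31 in knockout females, 0.14, 833 and 0.37 in knockout males, 2184, 308 and 139.8 in wild type females and 124, 502 and 205 in wild type males. The same 3 knockout pools were lowest on both array types. The spot carried the flag S in pool 1 of both female groups and the flag L in pools 1 and 3 of the knockout males. The files do not define these letters, which in CodeLink's usual code stand for saturated and near background. On that reading the flagged values may understate the range between pools and do not bound it.

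For Amy1 the same 3 knockout pools were lowest. Its Affymetrix signal was 4639.1, 1471.5 and 5.2 in knockout females, 40.4, 1556.4 and 24.1 in knockout males, 5179.4, 532.1 and 248.6 in wild type females and 143.1, 473.9 and 127.1 in wild type males. All 4 groups overlapped. The CodeLink spot read 220.1, 11.9 and 1.09 in knockout females, 1.51, 45.1 and 0.652 in knockout males, 219, 4.14 and 3.755 in wild type females and 3.63, 6.28 and 2.17 in wild type males. In the meibomian pools Amy1 stayed between 43.6 and 98.3 on Affymetrix arrays before centring, above its signal in the 3 lowest lacrimal pools. The meibomian arrays had higher medians, so this order is not one of centred values. On CodeLink arrays the meibomian pools were between 0.521 and 0.811, below the lacrimal pools at 1.09 and 1.51 and around that at 0.652.

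Cst10 and Smr3a, named on Affymetrix arrays alone, were lowest in the same 3 knockout pools. Cst10 was at 2915.9, 585.3 and 0.7 in knockout females, 1.0, 578.9 and 0.8 in knockout males, 3898.7, 141.6 and 74.7 in wild type females and 50, 153.9 and 47.2 in wild type males. Smr3a was at 3329.2, 759.5 and 0.4 in knockout females, 0.3, 548.9 and 0.3 in knockout males, 4341.2, 69.3 and 63.2 in wild type females and 104.8, 157.1 and 120.4 in wild type males. For both genes the 3 lowest pools lay under the pseudocount and the wild type males formed the tightest group. The Smr3a probe set carries the Affymetrix suffix for sets that match several transcripts, so signal from a close relative cannot be told apart.

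**Figure D1:**
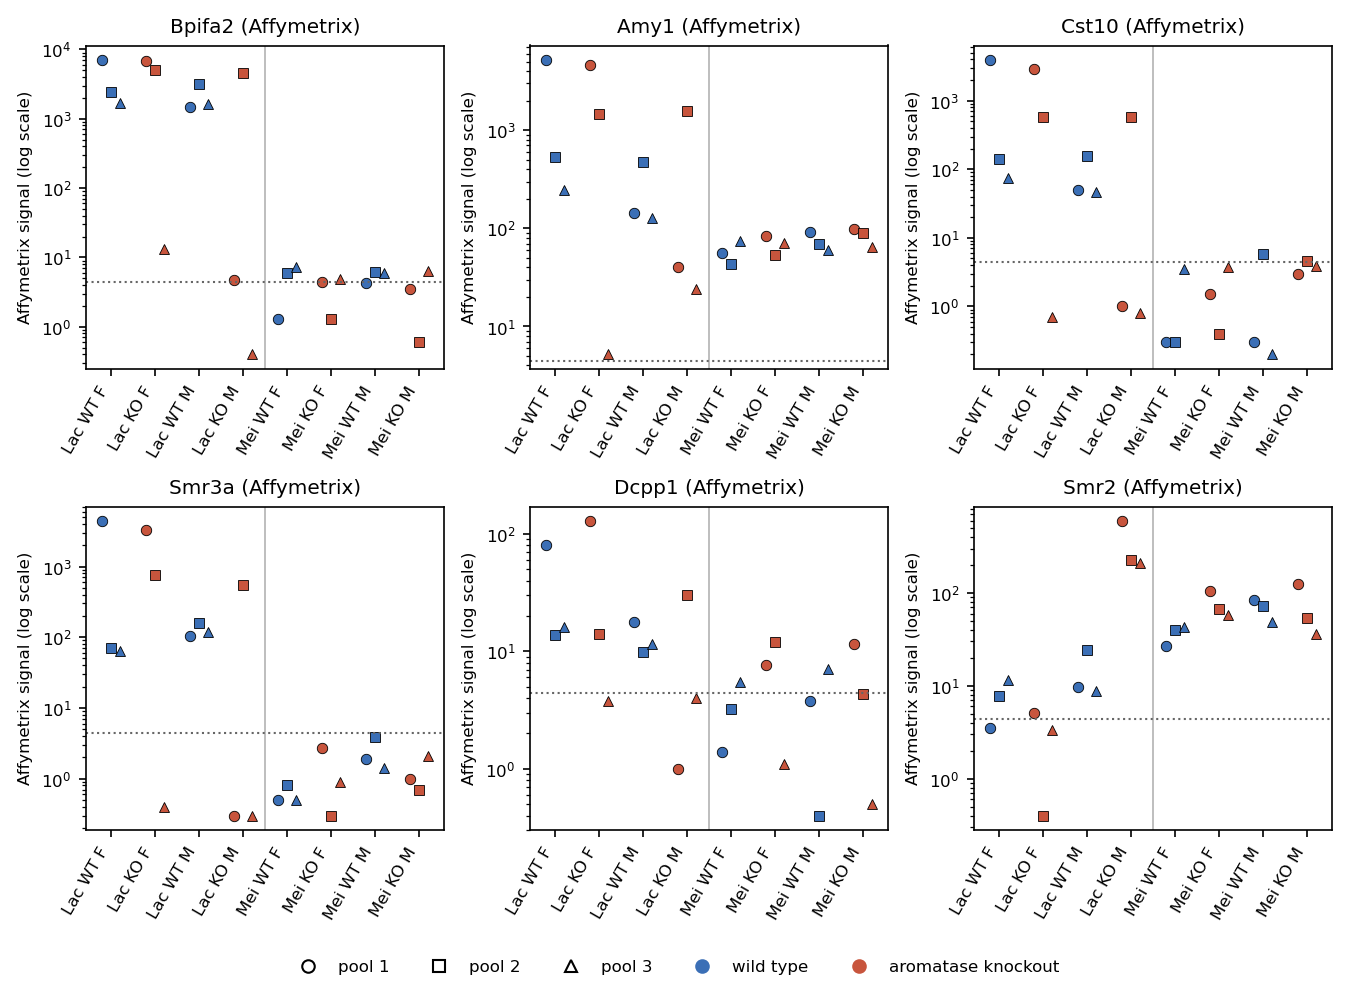
Affymetrix signal (log axis) of the 6 genes in every pool of the 8 groups (Lac, lacrimal; Mei, meibomian; WT, wild type; KO, aromatase knockout; F, female; M, male), each point 1 pool and the dotted line the pseudocount of 4.4. Bpifa2, Amy1, Cst10 and Smr3a span the most between pools of the knockout lacrimal groups, and Smr2 is high in the 3 lacrimal pools of knockout males.

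The same knockout pools were lowest for Dcpp1. The probe set that names it alone gave 127.4, 14 and 3.8 in knockout females, 1, 30.2 and 4 in knockout males, 81, 13.9 and 16.1 in wild type females and 17.6, 9.8 and 11.6 in wild type males. The set shared with Dcpp2 and Dcpp3 gave 5190.5, 1734.4 and 2.7 in knockout females, 99.6, 689.5 and 61.5 in knockout males, 5533.1, 271.6 and 180.1 in wild type females and 197.9, 483.8 and 117.5 in wild type males. The order of the pools was similar in both sets, but the share of Dcpp1 in the shared set cannot be told apart from that of its copies. Dcpp3 on a set of its own read 822.8, 268.6 and 9.1 in knockout females, 27.3, 38.6 and 19.5 in knockout males, 1070.9, 19.7 and 49.9 in wild type females and 36.2, 68 and 11.5 in wild type males.

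The spread between pools of the same group set these genes apart from most others on the array. Pooled over the 4 lacrimal groups, the SD of log2 values was 3.64 for Bpifa2, 3.54 for Smr3a, 3.38 for Cst10, 3.03 for Amy1 and 1.34 for Dcpp1, which placed them 1, 2, 4, 5 and 9 from the top among 7436 genes tested, whose median SD was 0.26. Smr2 had an SD of 0.65 and was placed 140. On CodeLink arrays Bpifa2 (SD 4.29) and Amy1 (2.87) were placed 1 and 3 among 6573 genes, and Smr2 (0.31) was placed 2742. The members were chosen with earlier results of these data known, so these places describe the arrays and are no independent support. The sum of the 13 lacrimal acinar genes, which holds genes also listed as salivary, ranged from 26437.4 to 27786.6 across the 3 knockout female pools. Bpifa2 went from 13.4 to 6893.8 in these pools. In glands pooled whole, fewer cells of a type and less RNA per cell cannot be told apart, and the part of salivary cells was not tested.

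**Figure D2:**
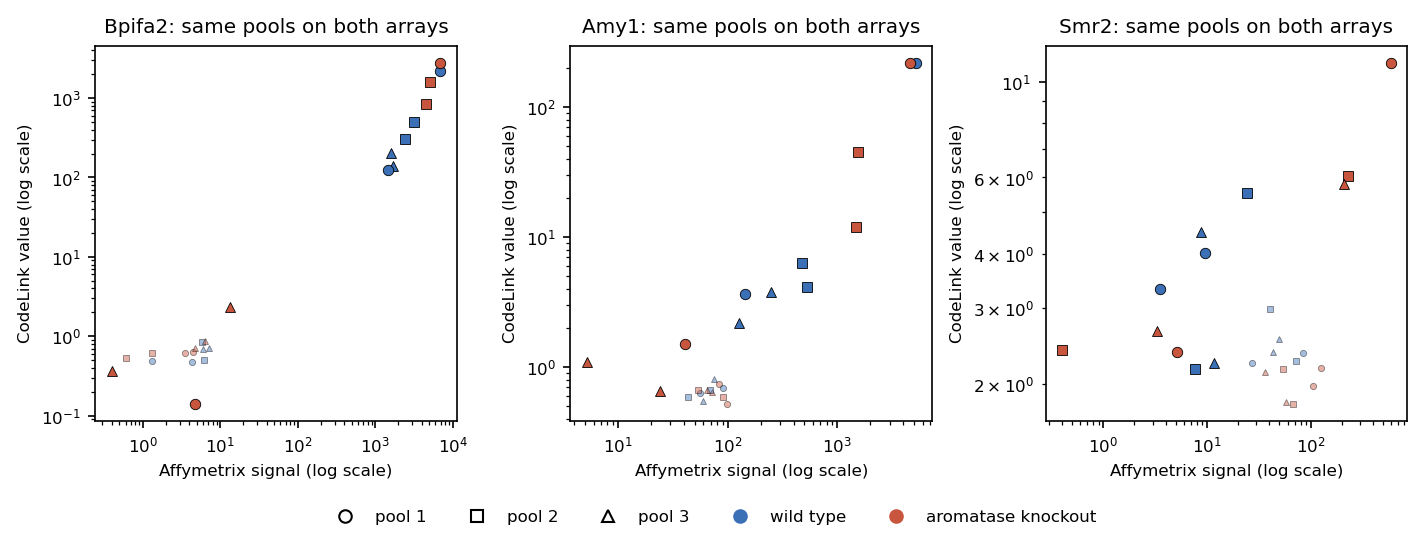
Affymetrix signal against CodeLink value (both log axes) for the 3 genes named on both arrays, 1 point per pool, large for lacrimal and small and pale for meibomian pools. For Bpifa2 and Amy1 the same lacrimal pools are high and low on both arrays, and for Smr2 the CodeLink values stay between 1.80 and 11.1.

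Likeness was measured as the correlation of deviations from the group means over the 12 lacrimal Affymetrix arrays. The nearest to Smr3a were Cst10 (Pearson r 0.992), Chia1 (0.988) and Amy1 (0.974), and the nearest to Cst10 were Smr3a (0.992), Chia1 (0.990) and Amy1 (0.988). Chia1, the acidic chitinase, a secreted enzyme of mouse stomach and salivary gland, was also nearest to Bpifa2 (0.958, and 0.941 on CodeLink arrays) and second to Amy1 (0.982, and 0.970 on CodeLink). Its signal was 5012.5, 1540.1 and 4.7 in knockout females, 5.9, 1537.5 and 1.8 in knockout males, 5332.8, 264.6 and 175.0 in wild type females and 123.3, 342.2 and 242.3 in wild type males. Dcpp1 was nearest to Ggh (0.923), a folate hydrolase, Zdhhc6 (0.922) and Fxyd2 (0.911). These coefficients describe arrays that share pools, and the few extreme pools weigh heavily in them.

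Smr2 did not follow the other members. Its deviations correlated negatively with theirs on Affymetrix arrays, from -0.42 with Smr3a to -0.31 with Amy1, while on CodeLink arrays r was -0.23 with Bpifa2 and 0.0060 with Amy1, and its nearest genes were Ece2 (0.944), Pik3ca (0.911, but -0.29 on CodeLink arrays) and Smad7 (0.909). By levels, which include the differences between groups, the nearest were Pcdh20 (0.982), Tspan6 (0.977, and 0.867 on CodeLink) and Ddc (0.975, and 0.768 on CodeLink). Ddc, the aromatic amino acid decarboxylase, read 3631.7, 2004.1 and 2834.0 in knockout males and at most 17.4 in the other lacrimal pools.

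The contrast between Smr2 and Smr3a is shown against their sequences, because the pair lies side by side with similar upstream regions. No protein-coding gene lies between them on chromosome 5 in the RefSeq annotation of GRCm38.p6. The 250 bases before each gene start, from RefSeq on the same build, follow 5′ to 3′, Smr2 at chr5:88086306-88086555 and Smr3a at chr5:88002275-88002524, both on the plus strand. Capitals mark the bases that differ in a local alignment of the windows.
Smr2: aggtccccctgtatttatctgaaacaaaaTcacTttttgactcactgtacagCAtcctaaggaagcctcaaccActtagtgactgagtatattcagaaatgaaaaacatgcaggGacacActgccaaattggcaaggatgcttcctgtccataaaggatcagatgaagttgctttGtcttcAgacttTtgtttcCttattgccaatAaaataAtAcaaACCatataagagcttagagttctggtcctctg
Smr3a: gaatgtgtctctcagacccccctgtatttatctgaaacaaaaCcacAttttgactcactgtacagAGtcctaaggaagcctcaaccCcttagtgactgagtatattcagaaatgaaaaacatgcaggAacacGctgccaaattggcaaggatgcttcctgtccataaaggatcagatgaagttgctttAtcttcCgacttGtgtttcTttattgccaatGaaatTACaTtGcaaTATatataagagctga
Of 231 aligned columns 211 (91.3%) were identical, 17 were substituted and 3 were gapped. The other 20 pairs of windows of the 6 genes, Amy1 having 2 starts, had at most 121 identical bases. The letters TATAA, searched on both strands, stand 28 bases before the start of Smr2 and 12 before that of Smr3a, and occur in 22.8% of 32851 windows of this length. The letters AGAACA, a half-site of the androgen receptor, are in neither window, are in that of Bpifa2 and in both of Amy1, and occur in 16.1% of all. These letter matches describe the windows and no binding was measured.

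Smr2 was higher in lacrimal glands of knockout males. The Affymetrix probe set used for its test gave 588.8, 228.3 and 208.7 in knockout males, 5.1, 0.4 and 3.3 in knockout females, 9.6, 24.1 and 8.8 in wild type males and 3.5, 7.7 and 11.6 in wild type females. The lowest knockout male pool was above all 9 other lacrimal pools, and 13.7% of all genes tested had no overlap between the male groups. The log2 difference from wild type males was 4.10 ± 0.41 (SE, 3 pools against 3, limma adjusted p = 8.35e-06), a 17.1-fold difference on the scale of signal plus pseudocount. Smr2 was the 1 member of 6 to pass in this comparison, in which 1.83% of all genes tested passed. Its probe set passed the filter on low values only through the knockout males, so it had to differ among the genes kept, and without that filter the adjusted p by limma was 1.99e-05.

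The knockout males were also highest on the other Smr2 features, with a smaller difference on the CodeLink spot. The second probe set read 525, 244.3 and 184.8 in knockout males and at most 9.8 in the other lacrimal pools. The third read 124.7, 33.4 and 30.2 in knockout males and at most 3.2 elsewhere in lacrimal pools. The CodeLink spot read 11.1, 6.04 and 5.81 in knockout males, 2.37, 2.40 and 2.65 in knockout females, 4.01, 5.53 and 4.49 in wild type males and 3.31, 2.16 and 2.24 in wild type females. On this spot the male groups did not overlap, as for 12.4% of CodeLink genes, but the difference of 0.58 ± 0.23 did not pass (limma adjusted p = 0.586), where 0.913% of genes passed. P-values, SEs and intervals here rest on the spread between pools, which limma moderates toward that of all genes tested. For every member in lacrimal glands these SEs are smaller than its own spread alone would give. The number of arrays limits their precision.

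**Figure D3:**
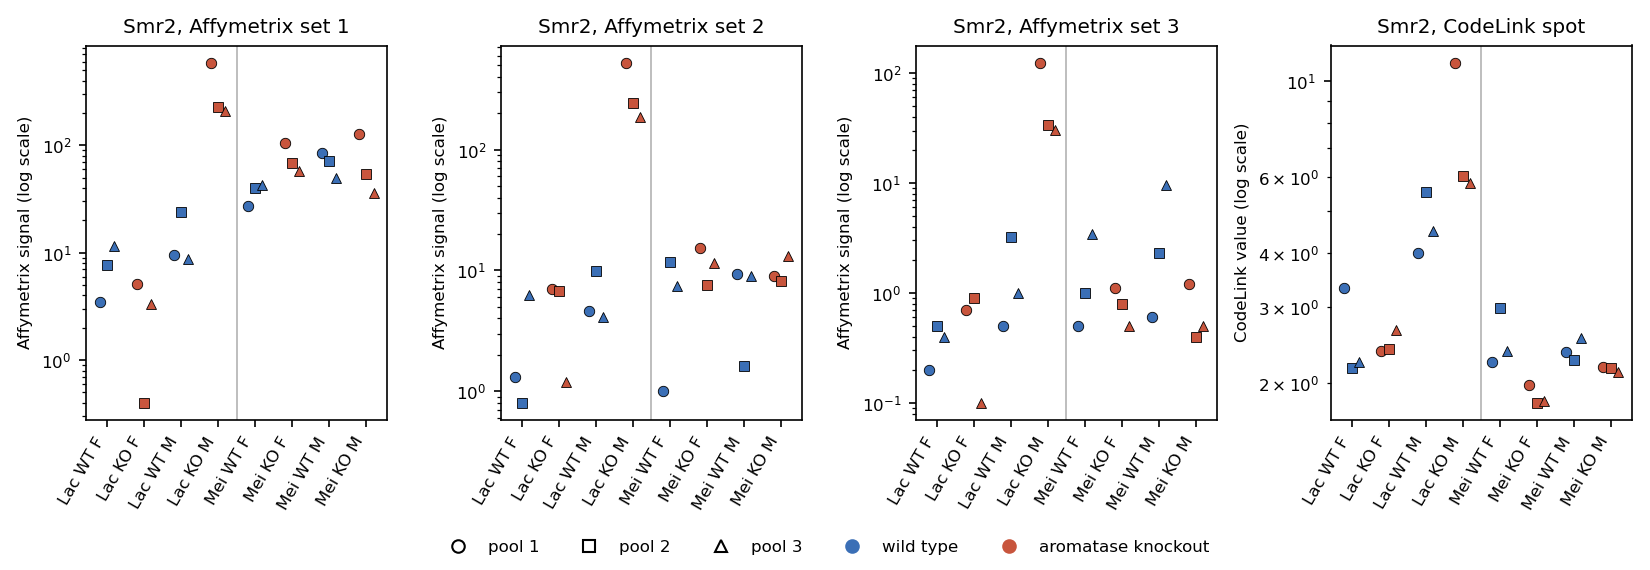
Signals (log axes) of Smr2 on its 3 Affymetrix probe sets and its CodeLink spot in every pool of the 8 groups, with 1 point per pool. The lacrimal knockout male pools are the highest lacrimal pools on all 4 features. Signals are shown before centring, and on the first probe set the meibomian pools, at 27 to 126.2, lie above the other 9 lacrimal pools.

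The knockout effect on Smr2 differed between the sexes on Affymetrix arrays. In females the difference from wild type was -0.26 ± 0.41 (95% interval -1.12 to 0.61, limma adjusted p = 0.820), and 0 of 6 members passed where 4.13% of all genes did. At an unadjusted p under 0.05 there were 0 members and 1255 of 7436 genes. The female effect minus the male effect was -4.36 ± 0.58 (limma adjusted p = 0.000261), where 1.65% of genes passed and no other member did. CodeLink arrays gave -0.59 ± 0.33 for the same quantity (limma adjusted p = 0.651), where 1.1% of genes passed. Knockout females differed from knockout males by -5.05 ± 0.41 on Affymetrix arrays (limma adjusted p = 2.00e-07), where 9.36% of genes passed. On CodeLink arrays they differed by -1.38 ± 0.23 (limma adjusted p = 0.00376), where 7.8% of genes passed. Smr2 was the 1 member to pass on either. Its Affymetrix probe set passed the filter on low values only through the knockout males. It had to differ among the genes kept, so its passes here rest partly on the filter. The difference of effects and the difference between knockout sexes also passed on Affymetrix arrays with no filter. In wild type mice the sex difference was -0.69 ± 0.41 on Affymetrix arrays (limma adjusted p = 0.284), and 0 of 6 members passed where 14.3% of genes did. At an unadjusted p under 0.05 there were 0 members and 2111 genes. CodeLink arrays gave -0.79 ± 0.23 for Smr2 in wild type mice without passing (limma adjusted p = 0.0688), where 6.97% of genes passed, and the groups did not overlap, as for 21.1% of genes.

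The mean log2 signals of the other members were lower in knockout than wild type males on Affymetrix arrays, without passing. On the linear scale the means of Amy1 (540.3 against 248.0), Cst10 (193.6 against 83.7) and Smr3a (183.2 against 127.4) were higher in knockout males, with pool 2 the highest of its group, and on CodeLink arrays the log2 difference of Amy1 was 0.057. Bpifa2 differed by -5.12 ± 1.99 (95% interval -9.31 to -0.94, limma adjusted p = 0.310) and by -5.26 ± 2.87 on CodeLink arrays (limma adjusted p = 0.828). Smr3a differed by -2.55 ± 1.94 (interval -6.62 to 1.52), Cst10 by -1.64 ± 1.85 (-5.53 to 2.25), Amy1 by -0.79 ± 1.66 (-4.28 to 2.70) and Dcpp1 by -0.61 ± 0.77 (-2.22 to 1.00). The intervals of these 4 genes included 0. The interval of Bpifa2 rests on a moderated spread, smaller than its own SD of 3.64, so its lying below 0 is no call. Without pool 2 of the knockout males, the high pool of that group, Bpifa2 passed at -8.22 (limma adjusted p = 0.0121), with 4.7 and 0.4 in the pools left, so this value is set by the pseudocount and is no bound.

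In females the differences between genotypes were smaller than the spread between pools. Bpifa2 differed by -1.40 ± 1.99, Amy1 by -0.69 ± 1.66, Cst10 by -0.34 ± 1.85, Dcpp1 by 0.22 ± 0.77 and Smr3a by 0.17 ± 1.94, and the smallest limma adjusted p of these 5 was 0.800. Leaving out pool 3 of the knockout females moved Bpifa2 to 1.36, Amy1 to 1.98, Cst10 to 2.30 and Smr3a to 2.94, which turned the sign of the first 3. Leaving out pool 1 of the wild type females turned Amy1 (0.50) and Cst10 (1.31) too, and Smr3a was -1.73 without pool 1 of the knockout females.

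Between knockout sexes the 5 genes were higher on average in females. The log2 differences were 4.27 ± 1.99 for Bpifa2 (limma adjusted p = 0.193), 3.72 ± 1.94 for Smr3a (0.245), 3.42 ± 1.85 for Cst10 (0.264), 2.08 ± 1.66 for Amy1 (0.469) and 1.62 ± 0.77 for Dcpp1 (0.201). None of the 5 passed with all pools. Without pool 3 of the knockout females Bpifa2 (7.04, limma adjusted p = 0.0181), Smr3a (6.49, 0.0209), Cst10 (6.06, 0.0239) and Amy1 (4.75, 0.0248) passed, and without pool 2 of the knockout males Bpifa2 passed (7.37, 0.00902). Knockout pools under the pseudocount enter the values of Bpifa2, Smr3a, Cst10 and Dcpp1, which are therefore no bounds. For Amy1 the lowest knockout pool, at 5.2, was above the pseudocount, and that pool is left out of the 4.75. In wild type mice the same differences were 0.55 ± 1.99, 1.00 ± 1.94, 2.12 ± 1.85, 1.98 ± 1.66 and 0.79 ± 0.77, all with a limma adjusted p of at least 0.464.

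**Figure D4:**
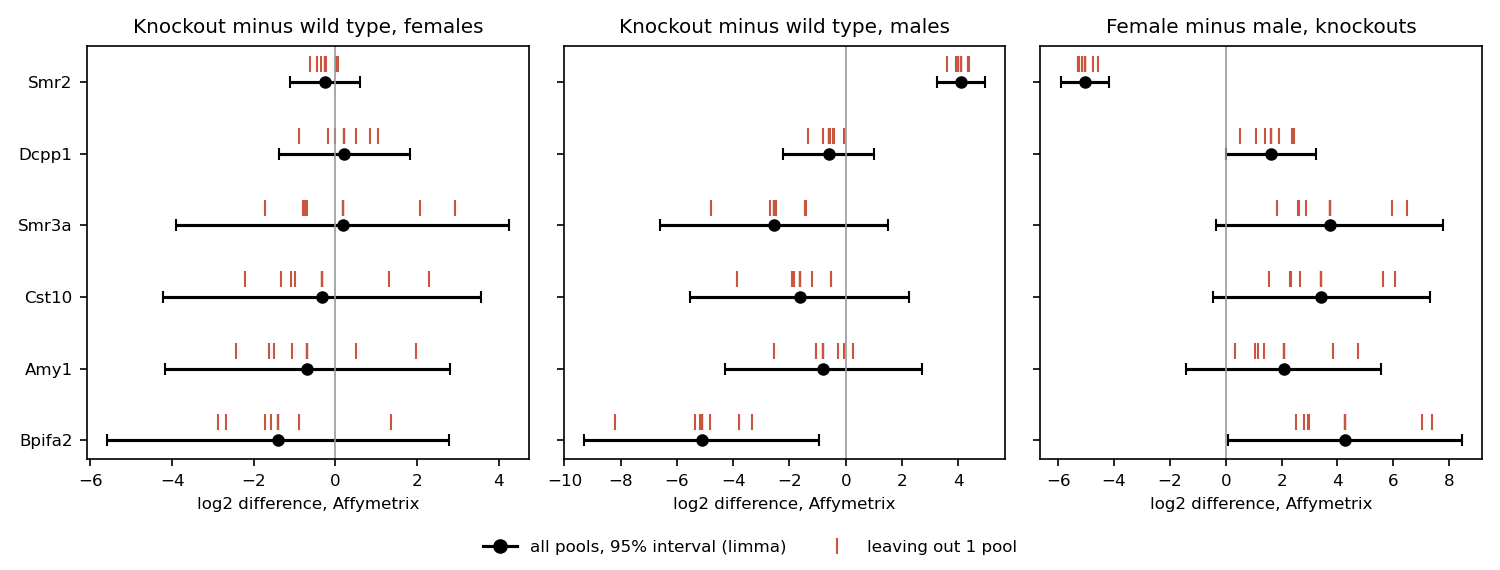
Log2 differences of the 6 genes in lacrimal glands on Affymetrix arrays with 95% intervals (black, 3 pools per group) and the values after leaving out 1 pool at a time (red ticks). Smr2 lies between 3.61 and 4.38 in males and between -5.30 and -4.56 between knockout sexes whichever pool is left out, while Bpifa2 lies between -8.22 and -3.35 in males.

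Other salivary genes were taken from a list of acinar and demilune secretory genes, 13 of 18 named on the Affymetrix array and 10 tested in lacrimal glands. Several had signals of the same order in every lacrimal pool. Car6, the secreted carbonic anhydrase, ran from 5929.9 to 8717.1, Pip, prolactin-induced protein, from 6634.7 to 10356.3, Dnase1 from 6857.1 to 8975.1 and Lpo, lactoperoxidase, from 2893.5 to 5810.9, and 5 genes of the list are also lacrimal acinar genes. Prpmp5, a proline-rich protein, was at 147.6 and 48.3 in pool 1 of the wild type and of the knockout females and at most 9.2 in the other lacrimal pools. Bpifa1 stayed at 4.5 or less and Bpifb1 at 14.9 or less.

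In knockout males 0 of the 10 were higher and 1 was lower, Dmbt1, a scavenger receptor of saliva and tears (-1.06 ± 0.17, limma adjusted p = 0.00173), with a median of -0.14 beside -0.02 for all genes tested, of which 1.14% were higher and 0.686% lower. In knockout females 2 were higher and 0 lower, with a median of 0.34 beside -0.05 for all genes, of which 2.04% were higher and 2.08% lower. These were Prol1, a proline-rich secreted protein (3.85 ± 0.57, limma adjusted p = 0.000454), and Lpo (0.91 ± 0.15, limma adjusted p = 0.000937). Prol1 read 51.0, 68.2 and 212.4 in knockout females against 28.6, 0.2 and 0.5 in wild type females, 986.1, 408.9 and 568.1 in knockout males and 363.7, 748.5 and 385.9 in wild type males. Its female values did not overlap between genotypes, as for 25.2% of genes, and stayed below the male ones. Because 2 of the wild type female values lie under the pseudocount, the fitted difference is no bound.

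Submandibular granular duct genes, chiefly glandular kallikreins, which cleave secreted proteins, differed between the male groups for some members of the list. Of 19 listed genes 11 are named on the array and 6 were tested, of which 4 were higher and 0 lower in knockout males, where 1.14% and 0.686% of all genes were. Klk1b27 and Klk1b21 passed the filter only through the knockout males, so they had to differ and the count rests partly on the filter. Klk1b27 was at 1768.5, 602.1 and 322.8 in knockout males and at most 0.6 in the other lacrimal pools. Klk1b24 was at 1398.3, 642.8 and 641.0 against 34.4, 39.0 and 20.8 in wild type males (4.53 ± 0.29, limma adjusted p = 1.52e-08), and Klk1b21 at 401.7, 187.3 and 103.6 against 14.1, 12.8 and 2.0 (3.95 ± 0.47, limma adjusted p = 6.90e-05). Klk1b11 differed by 1.60 ± 0.23 in males (limma adjusted p = 0.000813) and by 1.05 ± 0.23 in females (limma adjusted p = 0.0116), the 1 gene of the 6 to pass there. Pool 1 was the highest knockout male pool for these 4 kallikreins and for Smr2, and it was low for Bpifa2, Smr3a and Cst10. On CodeLink arrays 3 of 9 tested duct genes were higher in knockout males, where 0.669% of all genes were, among them Klk1b27 (5.37 ± 0.46, limma adjusted p = 5.02e-05) and Klk1b21 (2.79 ± 0.37, limma adjusted p = 0.00205). The kallikreins are near-identical copies, so a probe may read several.

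**Figure D5:**
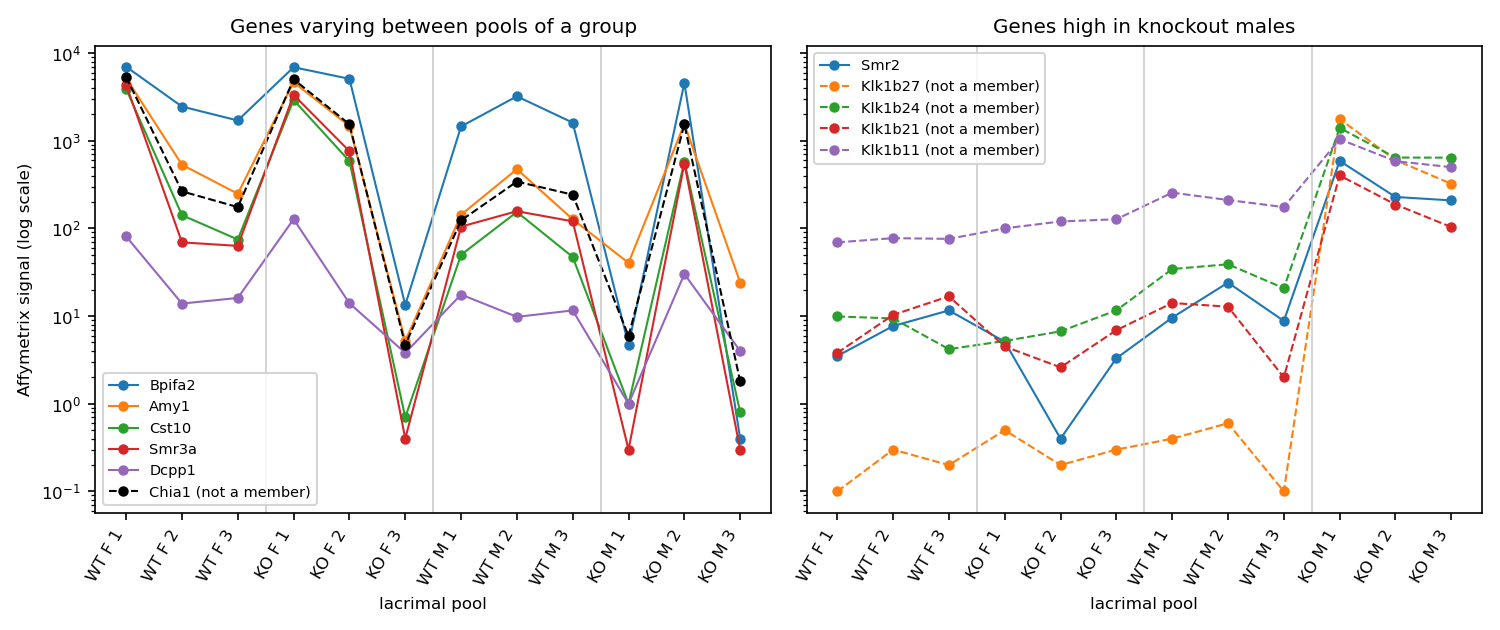
Affymetrix signal (log axis) across the 12 lacrimal pools for Bpifa2, Amy1, Cst10, Smr3a, Dcpp1 and Chia1 on the left and for Smr2 and 4 kallikreins on the right, in pool order 1 to 3 within each group. In the left set pool 3 of the knockout females and pools 1 and 3 of the knockout males are lowest, and the right set is highest in the 3 knockout male pools.

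Klk1, the tissue kallikrein, did not pass between the male groups (0.04 ± 1.04, limma adjusted p = 0.996). Its signal was 104.2, 105.3 and 0.7 in knockout females, 7.4, 76.6 and 0.4 in knockout males, 173.9, 28.7 and 6.0 in wild type females and 12.9, 8.2 and 12.9 in wild type males. Egf, epidermal growth factor, a granular duct product, ranged only from 289.4 to 687.2. The part of salivary cells or of other cell types in any of these differences was not tested.

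Meibomian pools held little signal of the members other than Amy1 and Smr2. Smr3a was at 3.9 or less, Bpifa2 at 7.2 or less, Cst10 at 5.9 or less and Dcpp1 at 11.9 or less, and these 4 genes fell under the filter on low values there. The first Smr2 probe set read 27 to 126.2 in meibomian pools, whereas the second stayed between 1 and 15.3 and the third between 0.4 and 9.5, so the sets disagreed. Amy1 and Smr2 were tested in 5 comparisons within the gland and neither passed, where 0.39% of genes passed between genotypes in females, 0% in males, 8.54% between wild type and 6.9% between knockout sexes and 0% for the difference of effects. At an unadjusted p under 0.05 the counts for the last and for males were 1044 and 1211 genes, and CodeLink arrays gave 0 and 1 genes after adjustment. The Smr2 difference between genotypes in females was 0.77 ± 0.32 (limma adjusted p = 0.247) on Affymetrix and -0.41 ± 0.12 (limma adjusted p = 0.502) on CodeLink arrays.

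Between the glands, 3 of 6 members passed the filter and were higher in lacrimal glands, where 49.7% of all genes were. Bpifa2 fell under the filter in meibomian glands and passed through the lacrimal pools alone, so its direction was fixed by the filter and its fitted difference, set by the pseudocount, is no bound. Bpifa2 differed by 8.45 ± 0.85 (12 pools against 12, limma adjusted p = 7.81e-10) and Amy1 by 4.07 ± 0.70 (limma adjusted p = 7.34e-06), and CodeLink arrays gave 7.08 ± 1.09 and 3.28 ± 0.73. On CodeLink arrays Amy1, like Bpifa2, fell under the filter in meibomian glands, so there its direction too was fixed by the filter. Before centring, Amy1 on Affymetrix arrays was lower in its 3 lowest lacrimal pools than in any meibomian pool. On CodeLink arrays 2 of these lacrimal pools, at 1.09 and 1.51, were above the meibomian maximum of 0.811. Smr2 differed by 0.71 ± 0.21 after centring (limma adjusted p = 0.00269). Its centred lacrimal mean was 3.42 in knockout males, -1.63 in knockout females, -1.37 in wild type females and -0.68 in wild type males. The meibomian means were -1.19 to -0.42, so only the knockout male mean lay above all of them. Before centring, the signal of the fitted probe set was higher in every meibomian pool than in the 9 lacrimal pools other than knockout males. Under quantile normalization the difference between glands was 0.11 (limma adjusted p = 0.646). On CodeLink arrays, where the meibomian pools did not lie above these 9, it was 0.91 ± 0.10 (limma adjusted p = 1.42e-08). Gland, dissection and extraction differ together and cannot be told apart.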

How the data were processed

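Labelled RNA of 24 gland pools was measured on Affymetrix and CodeLink arrays, 24 of each, from 2 µg of RNA per the labels' protocols. The deposited Affymetrix values are linear intensity, 1 per probe set. The submitters' processing notes name GCOS and give neither version nor settings. The CodeLink files hold, per the file headers, a raw intensity and a value per spot, and the value, used here, equals the raw intensity divided by 1 factor per array. Levels of the 2 array types were not set against each other.

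Of 22690 probe sets 20393 name 1 gene, 691 several and 1606 none, and of 17440 CodeLink spots 11377 name 1 gene. Symbols were updated through RefSeq (GRCm38.p6). The feature with the highest mean stood for a gene. Values were turned into log2(value + the 20th percentile of positive values, 4.4 or 0.305), centred on the array median, and the top 60% of genes by mean per gland were tested with limma 3.58.1 in R 4.3.3 (lmFit, eBayes with trend), Benjamini-Hochberg adjustment and a 5% threshold. The fit was tested on simulated data. Each gland's 4 groups were fitted in 1 model, and both glands' 8 groups for the difference between glands. CodeLink was fitted alike, as an alternative. Further alternatives were another pseudocount, quantile or 75th percentile scaling, no filter, every probe set, robust variances, the replicate block and leaving out each pool.

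Named genes were the members, up to 5 genes of a list with the smallest p, and the 3 genes nearest to a member by correlation. Dcpp3, Prpmp5, Bpifa1, Bpifb1, Klk1 and Egf were chosen after their values were seen. The members and lists were chosen with earlier results of these data known. Pools of a group are separate per the labels, but nothing says how mice were assigned to them. The number of arrays limits the precision. Figures used Python 3.11.15, pandas 2.3.3 and matplotlib 3.10.9.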

Additional observations from a re-analysis of the deposited data

Results flagged for a closer look

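The knockout effect on Smr2 in lacrimal glands differed between the sexes by -4.36 (female minus male effect, log2, Affymetrix), by a test of the difference itself (limma adjusted p = 0.000261, or 0.000561 without the filter on low values, which its probe set passed only through the knockout males). All 3 knockout male pools were above all 9 other lacrimal pools, while CodeLink arrays gave -0.59 without passing (limma adjusted p = 0.651).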

How the results depend on the processing

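The effect of knockout on Smr2 in lacrimal males, its sex difference in knockouts and the difference of its effects kept their sign under every alternative run. On CodeLink arrays the first was 0.58, or 0.62 before division by the array factor, and the third -0.59 or -0.64, neither passing, while the sex difference passed throughout. The Smr2 difference between glands was 0.11 under quantile normalization and no longer passed. The cause of these changes was not tested.

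Values of members that had not passed turned sign in several settings. Under quantile normalization Smr3a in knockout females was -0.36 and Amy1 in the lacrimal difference of effects -0.20. With every probe set tested Smr2 in lacrimal females was 0.83, on another probe set. On CodeLink arrays, with the value before the array factor second, Amy1 was 0.057 and 0.17 in lacrimal males and -0.062 and -0.18 in the difference of effects. Smr2 in meibomian glands there was -0.41 and -0.41 between genotypes in females, -0.11 and -0.11 in males, 0.11 and 0.092 between wild type sexes, -0.19 and -0.21 between knockout sexes and -0.30 and -0.30 for the difference of effects.

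Leaving out 1 pool at a time gave ranges across 0 for knockout females of -2.43 to 1.98 (Amy1), -2.88 to 1.36 (Bpifa2), -2.23 to 2.30 (Cst10), -0.90 to 1.05 (Dcpp1), -0.62 to 0.070 (Smr2) and -1.73 to 2.94 (Smr3a). Amy1 in knockout males ran from -2.56 to 0.25 and Smr3a between wild type sexes from -0.90 to 1.97. In the lacrimal difference of effects Amy1 ran from -1.64 to 2.77, Cst10 from -0.59 to 3.94 and Dcpp1 from -0.29 to 1.66. In meibomian glands Amy1 ran from -0.056 to 0.20 between genotypes in females and -0.013 to 0.12 between wild type sexes, and Smr2 from -0.057 to 0.35 between genotypes in males and -0.013 to 0.49 between knockout sexes.

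The number of genes that passed changed as follows. In lacrimal females 307 became 502 with the 40th percentile as pseudocount, 147 on CodeLink arrays and 172 before the array factor, and 151 to 415 without a pool. In lacrimal males 136 became 60 and 70 on CodeLink, and 61 to 155 without a pool. Between lacrimal wild type sexes 1063 became 458 and 505 on CodeLink and 586 to 1410 without a pool, between knockout sexes 696 became 351 to 814, and for the difference of effects 123 became 72 and 79 on CodeLink. In meibomian females 29 became 15 under quantile normalization, 17 under 75th percentile scaling, 3 and 4 on CodeLink and 2 to 37 without a pool. In meibomian males 0 became 3 without the filter, 2 with every probe set, 1 and 1 on CodeLink and 0 to 120 without a pool. Between meibomian wild type sexes 635 became 71 to 773 and between knockout sexes 513 became 285 and 309 on CodeLink and 67 to 560 without a pool, and for the difference of effects 0 became 0 to 12. Between glands 6329 became 10696 without the filter and 10369 with every probe set, where more features were tested.

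Replicate numbers did not pair the pools throughout: of 18 same-number pairs each, 6 of lacrimal and 9 of meibomian Affymetrix arrays and 10 of lacrimal and 5 of meibomian CodeLink arrays had deviations correlated above 0.1, with a highest r of 0.69 on lacrimal CodeLink arrays. The median r of same-number and of other pairs was 0.065 and -0.022 on lacrimal and 0.113 and -0.028 on meibomian Affymetrix arrays. On CodeLink arrays these medians were 0.158 and -0.061 for lacrimal and -0.0022 and -0.00041 for meibomian glands. With the replicate block 318, 136, 1122 and 733 genes passed in the 4 lacrimal comparisons of groups and 128 for the difference of effects, Smr2 in lacrimal males kept its 4.10 (limma adjusted p = 3.27e-05), and no call on a member changed. Beside the pools left out, 78 gene counts under the alternatives stayed within 1.5 times of those reported and 21 did not, and 325 member values kept their sign and their side of the threshold, 17 turned sign and 5 no longer passed. The array types matched by pool number for 21 of 24 Affymetrix arrays.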
